A study of Mus musculus with 2 samples.

Results

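The BCL2 family genes described here are 10 genes that set the threshold of mitochondrial apoptosis: the survival genes Bcl2, Bcl2l1 and Mcl1, the effector genes Bax and Bak1, and the BH3-only genes Bcl2l11, Bbc3, Pmaip1, Bid and Bad. They were chosen by name, and all 10 were found among the 47643 gene IDs of the count files through their GENCODE M21 symbols. Messenger RNA came from E14 mouse embryonic stem cells (129/Ola background) whose labels name a double knockout of Ago1 and Ago2, which encode Argonaute proteins that carry out repression by microRNAs. The series holds 2 libraries of this 1 genotype, whose titles end in KO1 and KO2 and which are called replicate 1 and replicate 2 here. The cells were grown with 15% serum and 100 U/mL of LIF, the cytokine that keeps them self-renewing, on 0.2% gelatine. Whether the libraries stem from separate cultures or clones is not stated in the labels. Every SD below is therefore the spread of these samples alone, which can be technical. No unmodified cells enter the comparisons, and the levels below are those of cells labelled as knockout, with nothing to set an effect of the knockout against.

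Proteins of this family meet at the mitochondrial outer membrane. Survival members hold the effectors Bax and Bak in check, BH3-only proteins bind and neutralise survival members or activate the effectors directly, and freed effectors open pores that let cytochrome c out and start the caspase cascade. The same family acts in embryonic stem cells, which are known to undergo apoptosis readily after DNA damage. Much of its control lies in protein stability, cleavage, phosphorylation and localisation, which transcript counts do not show. Counts per gene also sum all isoforms, so the long and short forms of Bcl2l1 or the forms of Bcl2l11 could not be told apart.

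The libraries held 34798975 counts in replicate 1 and 29789560 in replicate 2. Ago1 had 2463 counts in replicate 1 and 4205 in replicate 2, and Ago2 had 4304 and 3839. Counts over whole genes show no edited exon or frameshift, so they check no genotype label, and Ago1 alone of the pair was called different between the libraries by both tests used below. All 6 embryonic stem cell markers were present, with a summed level of 3937 TPM in replicate 1 and 3909 TPM in replicate 2 (TPM is a count divided by gene length and scaled to the same total in each library). The summed levels of the other marker lists were 23.7 and 22.5 TPM for fibroblasts or feeders, nearly all of it from Thy1, 4.50 and 3.45 TPM for primitive endoderm and 1.78 and 2.29 TPM for germ layer genes. Of the 6 fibroblast markers, Col3a1 and Lum had no count, Col1a2 and Dcn had at most 2 counts in a library, and Col1a1 had 71 and 91. Fewer cells of a type and less RNA per cell cannot be told apart in these bulk samples.

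Because the genes labelled as knocked out encode proteins of microRNA repression, the seed matches in the members' 3′ UTRs are shown first. The microRNAs below are encoded in the miR-17-92 cluster and, for miR-294, in the miR-290 cluster, the main microRNA cluster of mouse embryonic stem cells; Bcl2l11 is a known target of the miR-17-92 cluster. Mature sequences are from RefSeq (GRCm38.p6), with the seed, bases 2 to 8, in capitals.
miR-17-5p: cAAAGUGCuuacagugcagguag
miR-92a-3p: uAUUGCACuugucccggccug
miR-294-3p: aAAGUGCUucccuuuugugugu

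Bcl2l11 held 2 matches to the miR-17-5p seed and 2 to the miR-92a-3p seed in its longest annotated 3′ UTR, of 4218 bases. The 4 windows of the plus strand of GRCm38, with the matching bases GCACTTT or GTGCAAT in capitals, are these.
Bcl2l11 miR-17-5p match at chr2:128159763-128159785: cagcctggtggaggaGCACTTTc
Bcl2l11 miR-17-5p match at chr2:128160437-128160459: gtctccccgactggaGCACTTTa
Bcl2l11 miR-92a-3p match at chr2:128161159-128161181: gagccaaatgtctctGTGCAATt
Bcl2l11 miR-92a-3p match at chr2:128162434-128162456: attgccactgtacctGTGCAATa

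Across the 10 members, 5 matches to the miR-17-5p seed lay in 4 genes (Bcl2, Mcl1, Bcl2l11 and Bid), while 11.8% of 20781 protein-coding genes with a 3′ UTR held one. On the transcript strand, 4 of those 5 overlapped a match to the miR-294-3p seed, AGCACTT, which differs from it by a shift of 1 base and was held by Bcl2, Mcl1 and Bcl2l11 and by 14.7% of protein-coding genes. The miR-92a-3p seed matched in Mcl1, Bak1, Bcl2l11 and Bad and in 6.56% of protein-coding genes. Of 4 further seeds, miR-29a-3p (TGGTGCT) matched in 4 members and 13.1% of genes, miR-34a-5p (CACTGCC) in 2 and 14.3%, miR-16-5p (TGCTGCT) in Bcl2 alone and 20.4%, and let-7a-5p (CTACCTC) in Bcl2l1 alone and 9.05%. Bcl2l11 had 8 matches over the 7 seeds and Pmaip1 had none. Longer 3′ UTRs hold more matches. Those of 9 of the 10 members, from 971 bases in Bbc3 to 5086 in Bcl2, exceed the median of 965 bases over the protein-coding genes, and that of Bax, with 224 bases, does not, so the members' matches stand beside those of mostly shorter 3′ UTRs. These matches are a description of letters, and without unmodified cells no level below can be tied to them.

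Of the 10 members, 9 reached 1 CPM in both libraries, and Bcl2 did not; CPM is a count scaled to the library total but not to gene length. The same threshold was passed by 29.6% of all listed genes and by 58.0% of protein-coding genes. In TPM the members spread from Mcl1 at 386 ± 18.02 (SD, n = 2 here and below) to Bcl2 at 0.0635 ± 0.0328. The family as a whole summed to 920 TPM in replicate 1 and 870 TPM in replicate 2. Mcl1 and Bax together dominated that sum, as the plot of TPM per member shows.

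**Figure D1:**
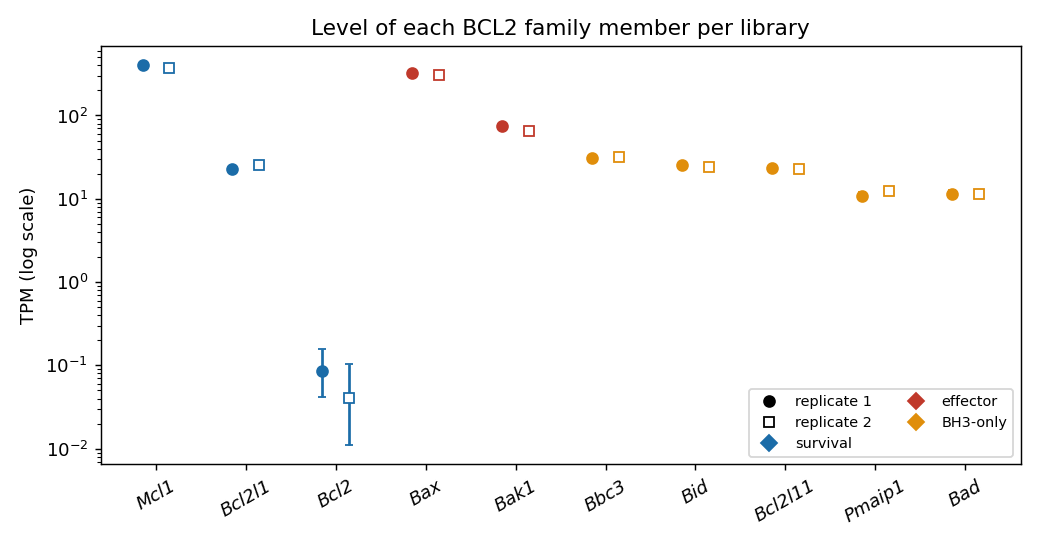
TPM (log scale) of each of the 10 members in replicate 1 (filled circles) and replicate 2 (open squares), ordered by level within the survival, effector and BH3-only roles, with 95% exact Poisson intervals of the counts as bars. Mcl1 (386 TPM on average) and Bax (313 TPM) stand highest, and Bcl2 stands lowest at 0.0635 TPM.

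Among the survival genes, Mcl1 carried nearly all of the transcripts and Bcl2 almost none. Mcl1 (ENSMUSG00000038612; GRCm38 chromosome 3, 95658788 to 95663176, plus strand) encodes a short-lived survival protein that restrains Bak and binds Bim and Noxa. It stood at 398 TPM in replicate 1 and 373 TPM in replicate 2, from 17139 and 13797 counts, which placed it at percentile 98.8 of 21620 protein-coding genes. Its exons overlap no other annotated gene.

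Bcl2l1 (ENSMUSG00000007659; chromosome 2, 152780668 to 152831728, minus strand) encodes the survival protein Bcl-xL and a shorter form with the opposite activity. It had 22.8 TPM in replicate 1 and 25.6 TPM in replicate 2, from 1318 and 1271 counts, at percentile 76.4 of protein-coding genes. Mcl1 thus exceeded Bcl2l1 by 17.4 times in replicate 1 and 14.6 times in replicate 2, a mean ratio of 16.01 ± 2.04. This ratio was 8.96 with the longest transcript as gene length and 7.83 with the median transcript, since 9 transcripts of different lengths are annotated for Bcl2l1 and 2 for Mcl1.

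Bcl2 (ENSMUSG00000057329; chromosome 1, 106538178 to 106714274, minus strand), the founding member of the family, had 10 counts in replicate 1 and 4 in replicate 2. That equals 0.287 CPM (95% exact Poisson interval 0.138 to 0.528) and 0.134 CPM (0.0366 to 0.344), intervals that cover counting error only and overlap. Both values lie above the floor of 3 counts per library, which equals 0.0862 and 0.101 CPM, and below the level at which the other 9 members stood. Bcl2 made up 0.0154% ± 0.00740 of the survival TPM, Bcl2l1 5.92% ± 0.710 and Mcl1 94.1% ± 0.703.

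Among the effectors Bax was the more abundant. Bax (ENSMUSG00000003873; chromosome 7, 45461697 to 45466898, minus strand), an effector that moves from the cytosol to mitochondria, had 322 TPM in replicate 1 and 304 TPM in replicate 2, from 6382 and 5195 counts, at percentile 98.5 of protein-coding genes. Bak1 (ENSMUSG00000057789; chromosome 17, 27019810 to 27029009, minus strand), an effector that resides in the outer membrane, had 75.2 and 65.0 TPM from 2278 and 1693 counts, at percentile 91.2. The mean ratio of Bax to Bak1 was 4.48 ± 0.288, and Bax held 81.7% ± 0.960 of the effector TPM.

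The effector ratio depended on the gene length used and on exons shared with other genes. It was 6.37 with the longest and 8.55 with the median transcript length, and 3.80 when exon bases overlapped by other annotated genes were left out of the length. Such bases made up 12.2% of the Bax exons (Gm45808, same strand, not found among the named gene IDs, so without counts here). They made up 25.5% of those of Bak1 (Ggnbp1, opposite strand, 1216 counts in replicate 1 and 1069 in replicate 2). The strand setting of the counting is not given in the sources used here, so how reads over the shared Bak1 bases were assigned cannot be told. For Bax, no gene with a named ID in the count files shares these bases. Leaving bases out shortened the length but kept the counts, so the resulting Bax level, 356 TPM in place of 313 TPM, can be too high.

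All 5 BH3-only genes were present, each below Bak1 by this gene length, and together they held 102 TPM in each library. Bbc3 (ENSMUSG00000002083; chromosome 7, 16308393 to 16318205, plus strand), which encodes Puma, a p53-induced protein that binds all survival members, had 30.6 TPM in replicate 1 and 31.4 TPM in replicate 2, the most of the 5 by this gene length. Bid (ENSMUSG00000004446; chromosome 6, 120891930 to 120916853, minus strand), which links death receptors to mitochondria after cleavage by caspase-8, had 25.8 and 24.2 TPM. Bcl2l11 (ENSMUSG00000027381; chromosome 2, 128126038 to 128162547, plus strand), which encodes Bim, had 23.5 and 23.0 TPM. Which of these 3 was first depended on the gene length. With the longest transcript Bcl2l11 (29.2 ± 0.282 TPM), Bid (28.9 ± 1.24 TPM) and Bbc3 (28.6 ± 0.627 TPM) did not differ beyond their spread, and with the median transcript Bid (56.3 ± 2.26 TPM) stood above Bbc3 (34.5 ± 0.844 TPM) and Bcl2l11 (34.1 ± 0.243 TPM).

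Pmaip1 and Bad were the lower BH3-only genes. Pmaip1 (ENSMUSG00000024521; chromosome 18, 66458533 to 66465565, plus strand), which encodes Noxa, a p53-induced protein that binds Mcl1, had 10.8 TPM in replicate 1 and 12.4 TPM in replicate 2. Bad (ENSMUSG00000024959; chromosome 19, 6941861 to 6951899, plus strand), which binds Bcl-xL and Bcl2 and is held by 14-3-3 proteins when phosphorylated, had 11.5 and 11.4 TPM. For the binding pairs named in this paragraph, Mcl1 exceeded Pmaip1 by 36.7 times in replicate 1 and 30.1 times in replicate 2. Bcl2l1 exceeded Bad by 1.98 and 2.25 times, whereas Bcl2, at 0.0635 ± 0.0328 TPM, stood below Bad at 11.4 ± 0.104 TPM. Under the other gene lengths the mean ratio was 33.4 to 49.6 for Mcl1 over Pmaip1 and 1.68 to 2.68 for Bcl2l1 over Bad.

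Within the BH3-only sum, Bbc3 took 30.3% ± 0.539, Bid 24.4% ± 1.15, Bcl2l11 22.7% ± 0.314, Pmaip1 11.3% ± 1.04 and Bad 11.2% ± 0.119. With the median transcript length Bid took 40.2% ± 1.25 of that sum and Pmaip1 3.20% ± 0.343. In CPM, which is not scaled to length, Bcl2l11 was the first of the 5 at 67.7 ± 0.610. It had 2371 counts in replicate 1 and 2004 in replicate 2, and its annotated exons cover 8029 bases. Exons of Bid overlap those of the family member Bcl2l13 on the opposite strand over 17.7% of their bases, and those of Bad overlap Gpr137 on the opposite strand over 20.5%. Bax, Bbc3 and Pmaip1, known transcriptional targets of p53, thus stood at 313 ± 12.2, 31.0 ± 0.599 and 11.6 ± 1.08 TPM, beside 247 ± 7.23 TPM for Trp53 itself.

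Ordered by mean TPM, the members ran Mcl1, Bax, Bak1, Bbc3, Bid, Bcl2l1, Bcl2l11, Pmaip1, Bad and Bcl2. Of the 9 neighbouring pairs, 6 were apart, meaning that the ranges of the 2 libraries did not overlap and the means differed by more than either SD. Bid and Bcl2l1, Bcl2l1 and Bcl2l11, and Pmaip1 and Bad did not differ beyond their spread. The order itself changed with gene length: Mcl1 was above Bax by 1.23 times with all exons and by 1.08 times without overlapped bases, but below it with the longest (0.859) and the median transcript (0.843). With the median transcript length Bid took the third place at 56.3 ± 2.26 TPM, Bak1 stood at 30.6 ± 3.0 TPM and Pmaip1 at 4.47 ± 0.439 TPM. Bcl2 was last under all 4 lengths.

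**Figure D2:**
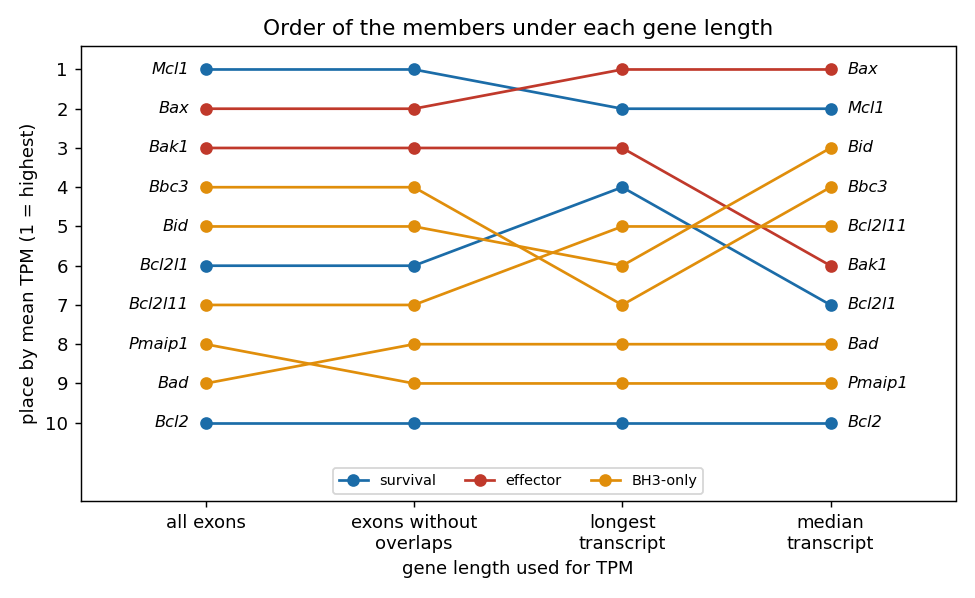
Place of each member by mean TPM (1 is the highest) when TPM is computed with all exons, exons without bases overlapped by other genes, the longest transcript or the median transcript length, with lines coloured by role. Mcl1 and Bax exchange the first and second places, Bid, Bbc3, Bcl2l11, Bak1 and Bcl2l1 exchange middle places, Pmaip1 and Bad exchange places 8 and 9, and Bcl2 stays at place 10.

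The balance of roles was close between survival genes and effectors, with BH3-only genes a smaller share. Survival genes held 45.8% of the family TPM in each library, with an SD of 0.00882. Effectors held 43.1% in replicate 1 and 42.4% in replicate 2, and BH3-only genes 11.1 and 11.8%. The survival sum was 1.07 ± 0.0122 times the effector sum and 0.844 ± 0.000300 times the sum of all death members.

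These shares rested on Mcl1 and on the gene length. Without Mcl1 the survival share was 4.77% ± 0.540. With the longest transcript it was 39.4% and the survival sum was below the effector sum (0.826 times), as it was with the median transcript (36.5%, 0.851 times) and without overlapped bases (42.2%, 0.910 times). The ratio without overlapped bases includes Bax at 356 TPM in place of 313 TPM, from the same counts. The gene overlapping Bax was not found among the named gene IDs, so this ratio can be too low. The share of BH3-only genes was 20.6% with the median transcript length. No test applies, since the series holds 1 condition, and sums of transcripts do not give protein amounts.

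**Figure D3:**
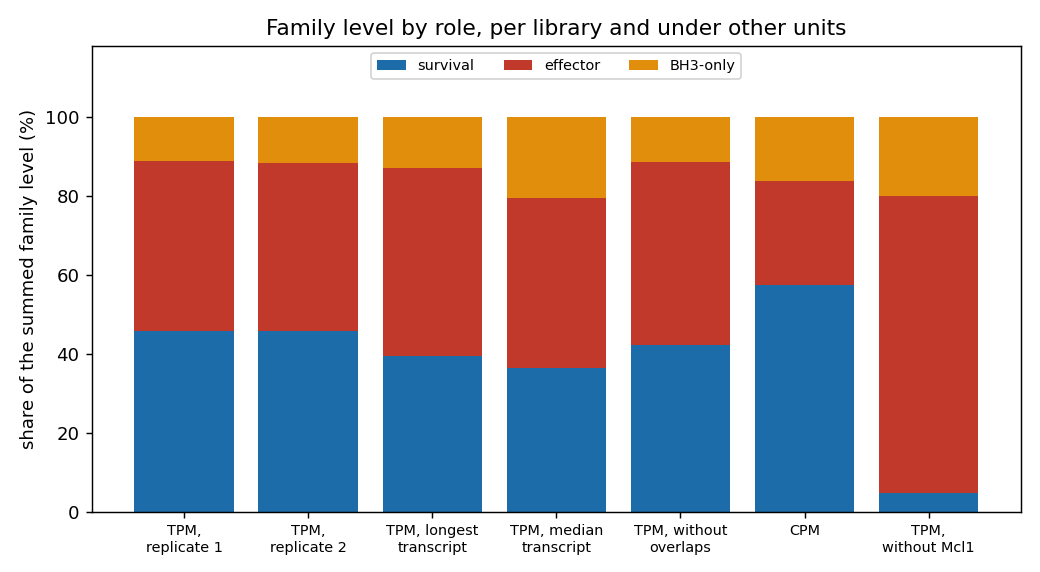
Share of the summed level of the 10 members (%) held by survival, effector and BH3-only genes, in each library by TPM and as means of both libraries under other gene lengths, in CPM and without Mcl1. The survival part is 45.8% in both libraries, lies between 36.5 and 57.3% under other lengths and in CPM, and is 4.77% without Mcl1.

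The spread between the libraries was then read for each member. An exact binomial test per gene, two-sided and adjusted by Benjamini-Hochberg over 19078 genes with at least 10 counts, compares the reads of these libraries and not conditions, and weighs a difference against counting error only. It called 4 of the 10 members at an adjusted p under 0.05, against 24.2% of all tested genes. Among genes with at least 50 counts in total, which leaves out Bcl2, that share was 31.3% and the test called 4 members. Mcl1, Bax and Bak1 were higher in replicate 1 (13.1% of all genes were) and Bcl2l1 was lower (11.2% of all genes were).

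The differences were small. The log2 ratio of replicate 1 over replicate 2 was 0.21 ± 0.05 (counting SE) for Bak1 (adjusted p = 9.37e-05, exact binomial test). It was 0.09 ± 0.02 for Mcl1 (adjusted p = 6.62e-07, exact binomial test) and 0.07 ± 0.03 for Bax (adjusted p = 0.0269, exact binomial test). For Bcl2l1 it was -0.17 ± 0.06 with an adjusted p of 0.0155 in the same exact test. None of the 5 BH3-only genes was called; their log2 ratios ran from -0.19 for Pmaip1 to 0.09 for Bid. The ratio of Bcl2, 1.00 ± 0.81, rests on its 10 and 4 counts.

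EdgeR's exact test takes its dispersion from these same 2 libraries, so the difference it tests is already part of its spread and few calls are built in. This exact test called 0 of the 10 members, also at an unadjusted p under 0.05 (lowest p = 0.232), and 0.440% of all tested genes, which does not show that the members' levels were alike. GC content moved with the ratio across genes (Spearman rho 0.19 over tested genes, which share both libraries). After a GC trend was removed, the binomial test called 2 members, Mcl1 and Bcl2l1, beside 21.0% of all genes. The log2 ratio was then 0.02 for Bax and 0.12 for Bak1, whose longest transcripts have 63.5 and 57.1% GC. It moved further from 0 for Bcl2l1 (-0.17 to -0.25) and Bbc3 (-0.04 to -0.07), whose longest transcripts have 55.9 and 65.2% GC. The median log2 ratio of the 10 members was 0.05, beside 0.01 over all tested genes, and the median absolute ratio was 0.09, beside 0.16 over all tested genes, many of which have fewer counts. Over the 13553 genes with at least 100 counts the median absolute ratio was 0.12, and the 9 members other than Bcl2 had a median of 0.09 and a maximum of 0.21.

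**Figure D4:**
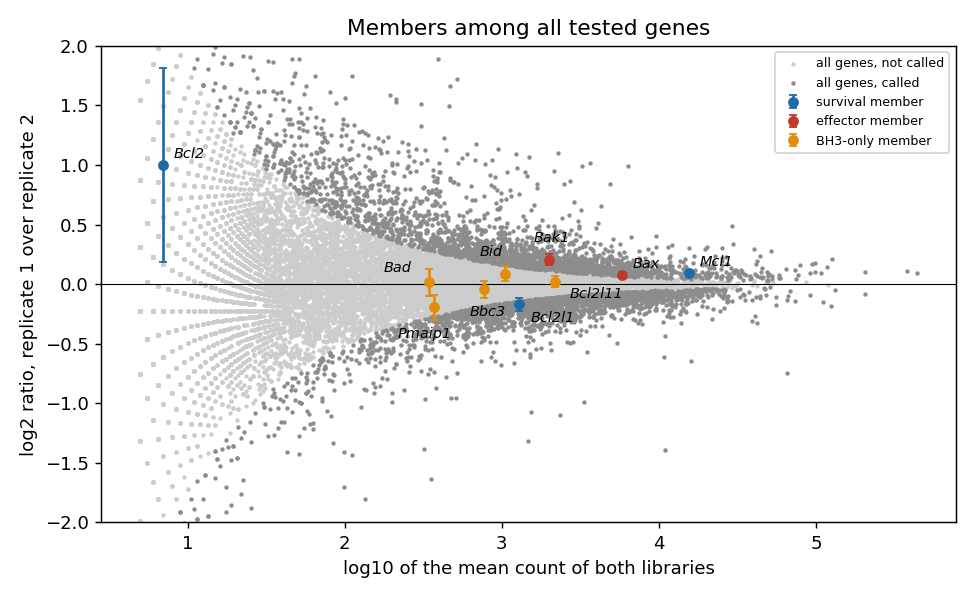
Log2 ratio of replicate 1 over replicate 2 against the log10 mean count for 19078 tested genes (light grey not called, dark grey called by the exact binomial test) and the 10 members coloured by role with counting SE bars; 109 genes lie beyond the axis limits of -2 and 2. The 9 members other than Bcl2 lie within 0.21 of 0, and Bcl2, with 10 and 4 counts, lies at 1.00.

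Around these 10 genes, 4 further lists of the pathway held 50 genes, all found. Of 14 other BCL2 family genes, 9 reached 1 CPM in both libraries and none exceeded 17 TPM on average. The highest were Bcl2l12 (16.6 ± 0.338 TPM), Bcl2l13 (16.4 ± 0.291 TPM) and the BH3-only gene Bmf (15.8 ± 2.54 TPM). Bcl2l2, which encodes the survival protein Bcl-w, stood at 9.19 ± 0.118 TPM and Bcl2l10 had 14 counts in replicate 1 and 9 in replicate 2. The 4 Bcl2a1 genes had no count in either library, although their values are uncertain since 10.4 to 79.5% of their 50-base stretches recur in other genes. Bmf, Bik and Bcl2l14 were called higher in replicate 1 by the exact binomial test, and the other 7 tested genes were not called; over all tested genes 24.2% were called and 13.1% were called higher.

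Of 9 genes of the caspase cascade, 8 reached 1 CPM in both libraries. Cycs, which encodes cytochrome c, had 82.6 ± 6.15 TPM, Dffa, which encodes the inhibitor of the apoptotic nuclease CAD, 23.2 ± 0.444 TPM and the caspase gene Casp2 19.1 ± 1.09 TPM; 26.1% of the Cycs sequence recurs in other genes. The lowest were Casp6 (1.70 ± 0.252 TPM) and Casp8 (0.925 ± 0.361 TPM), whose product cleaves Bid, with 43 counts in replicate 1 and 21 in replicate 2. Cycs was called lower and Casp9 higher in replicate 1 by the exact binomial test, with log2 ratios of -0.16 ± 0.04 and 0.24 ± 0.08, and the other 7 genes were not called, so that 2 of 9 were called beside 24.2% of all tested genes.

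The list of 9 genes named for inhibitors of apoptosis and their antagonists also holds Aifm1 and Endog, which are neither. All 9 were at 1 CPM or more. They ran from 75.0 ± 0.965 TPM for Birc5, a chromosomal passenger gene that encodes Survivin, to 15.5 ± 0.965 TPM for Diablo and 10.1 ± 0.541 TPM for Birc3. Aifm1 stood at 70.3 ± 1.39 TPM and Birc6 at 36.8 ± 1.49 TPM. Of the 9, 1 was called higher (Htra2) and 1 lower (Birc6) in replicate 1 by the exact binomial test, beside 13.1 and 11.2% of all tested genes. Exons of Diablo and Htra2 overlap other genes over 40.9 and 43.7% of their bases.

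All 18 partners and regulators of the members were at 1 CPM or more, led by Tpt1 (1825 ± 16.4 TPM) and the 14-3-3 genes Ywhae (908 ± 58.7 TPM) and Ywhaz (493 ± 9.93 TPM), and lowest in Fbxw7 (15.0 ± 1.000 TPM), a ubiquitin ligase gene for Mcl1, and the stress factor gene Ddit3 (14.7 ± 2.70 TPM). In this list the exact binomial test called 1 of the 18 higher (Ddit3) and 7 lower in replicate 1, beside 13.1 and 11.2% of all tested genes. With 54330 counts in replicate 1 and 47323 in replicate 2, Tpt1 was among the 7 at a log2 ratio of -0.02, since the test weighs a difference against counting error only.

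**Figure D5:**
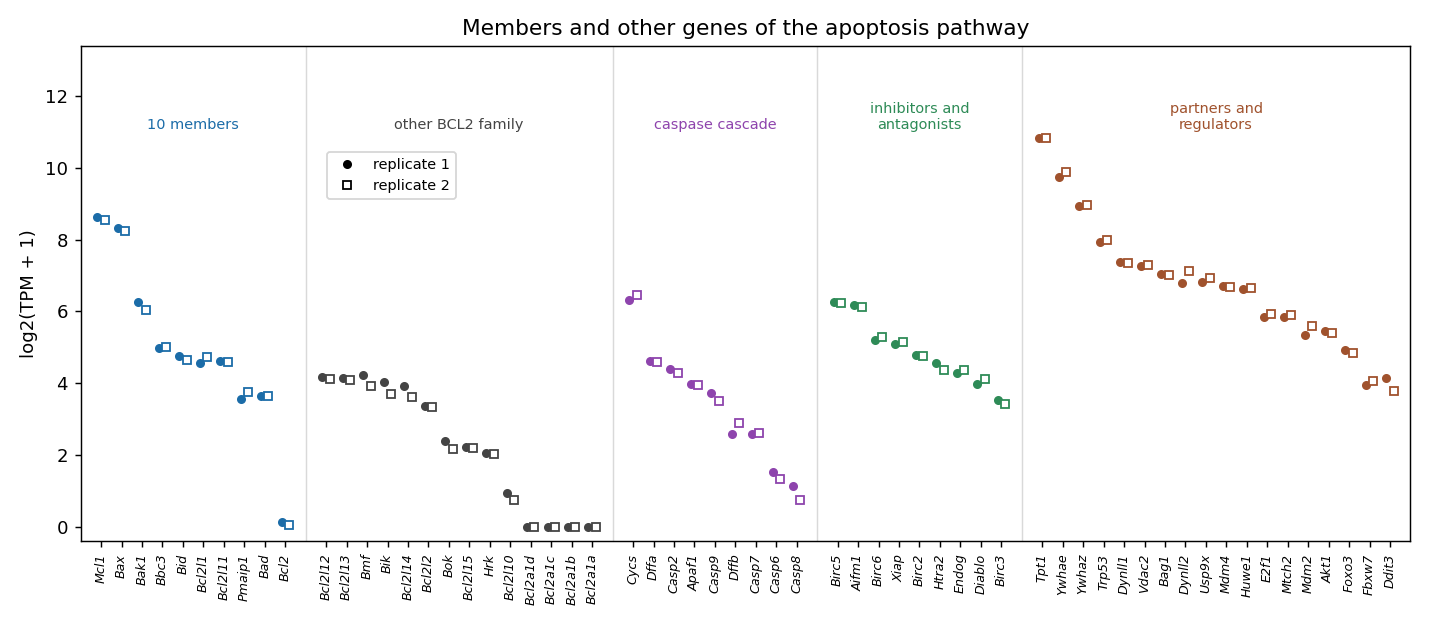
Level as log2(TPM + 1) of the 10 members and of 50 other genes of the apoptosis pathway in replicate 1 (filled circles) and replicate 2 (open squares), ordered by mean TPM within each list. Mcl1 and Bax stand above every gene of the other BCL2 family, caspase cascade and inhibitor lists, and Tpt1, Ywhae and Ywhaz stand above both.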

How the data were processed

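The authors deposited raw read counts by Ensembl gene ID, whole numbers, with 1 file for each library. STAR 2.4.2a and the mm10 (GRCm38) build are named per the submitters' processing notes. Libraries were made with a TruSeq kit from 1 ug of total RNA by a reverse-stranded protocol, per the labels' protocols. How reads were counted, with which strand setting and which gene annotation, is not given in the sources used here.

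IDs were named with GENCODE M21 (47224 of 47643; the others took 0.116 and 0.124% of counts). TPM used the union of exons. Intervals are 95% exact Poisson intervals and cover counting error only. Library sizes were scaled with edgeR 4.0.16 (TMM factors 0.999 and 1.00), and log2 ratios used a pseudocount of 0.5. For edgeR's exact test, both libraries were treated as 1 group to estimate a trended dispersion. Tests were run in R 4.3.3 and tested on simulated data; DESeq2 1.42.0 size factors were an alternative. A quasi-likelihood fit leaves no residual degrees of freedom here. Seed matches were searched on the transcript strand in the longest 3′ UTR of each gene, with overlapping matches counted. Members and lists were chosen with earlier results of these data known. All 10 members were named, and in each further list the 3 highest and 2 lowest genes by mean TPM; 1 gene of the caspase list is not reported here; genes named beyond these, such as Trp53, Bcl2l2, Bcl2l10, Casp9, Bik, Bcl2l14 and Htra2, were chosen after their values were seen.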

Additional observations from a re-analysis of the deposited data

How the results depend on the processing

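The median level of the 10 members was 24.8 TPM, between 24.6 and 24.9 TPM when 1 replicate was left out. It was 29.3 with the longest transcript, 32.6 with the median transcript and 27.3 without overlapped exon bases (chosen after seeing the data), and 36.2 in CPM. The survival share of 45.8% became 39.4, 36.5 and 42.2% under those lengths, 57.3% in CPM and 4.77% without Mcl1; leaving out 1 replicate gave 45.8% both times. The exact binomial test called 4624 of 19078 tested genes between the libraries, 4 members among them. EdgeR's exact test, whose dispersion holds the tested difference by construction, called 84 of the same 19078 genes and 0 of the 10 members. After removal of the GC trend the binomial test called 2 members (a count added after seeing the data). The log2 ratio of Bad was then -0.077 in place of 0.01. The cause of the other shifts was not tested. DESeq2 size factors, library totals and other count filters called 4 members each, and thresholds of 0.5 and 5 CPM or 1 TPM kept the count of expressed members at 9. No paired analysis was possible because the series holds 1 group. Depth limits Bcl2, whose 10 and 4 counts allow no statement on a difference.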
